A study of Homo sapiens with 26 samples.

Results

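The comparison described here sets 2 guide RNAs aimed at promoter P1 of HNF4A, sgP1E and sgP1J, against each other in AsPC-1, an established human pancreatic ductal adenocarcinoma cell line. The members were chosen by the guide named in each library's title, which gave 2 sgP1E and 2 sgP1J libraries, 4 of the 26 libraries of the series. The study asked how the isoforms of HNF4α act in pancreatic cancer cells. All 14 AsPC-1 libraries carried CRISPR interference, in which a guide RNA brings an inactive Cas9 to a promoter and lowers transcription from it. By their labels both groups compared have the same genotype, sgP1, and differ only in the guide. The 2 sgNC libraries, a control guide in the same line, served as a reference level. Those of sgP2D, sgP2G, sgDual2 and sgDual3 (guides to promoter P2 and to both isoforms, 2 libraries each) shared the estimate of the spread. Whether the cells of a guide came from 1 clone or a pool, how long the guides had been present, and the guides' sequences and positions are not given in the sources used here. The labels do not say that the 2 libraries of a guide are separate cultures, so the p-values measure the spread between libraries, which may be technical.

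The product of HNF4A is HNF4α, a nuclear receptor that binds DNA and maintains liver, intestinal and pancreatic epithelial identity. Its isoforms begin at separate promoters, P1, known for its use in adult liver and intestine, and P2, known for its use in pancreas and stomach, and they differ at the N-terminal end. Guides to 1 promoter share their intended target but differ in sequence and position.

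In the GENCODE v29 annotation (GRCh38) HNF4A lies on the plus strand at chr20:44355700-44434596, with 5 transcripts starting at P2 and 4 at P1, 45.47 kb downstream. The 250 bases before the P1 start are shown because both guides are aimed at that promoter; those before the start of GSPT2, on the X chromosome, are shown because that gene differed most between the guides. Both were read from RefSeq (GRCh38.p14, plus strand), and capitals would mark CAAAGTCCA, a form of the HNF4 site, on either strand.
HNF4A promoter P1, chr20:44400989-44401238: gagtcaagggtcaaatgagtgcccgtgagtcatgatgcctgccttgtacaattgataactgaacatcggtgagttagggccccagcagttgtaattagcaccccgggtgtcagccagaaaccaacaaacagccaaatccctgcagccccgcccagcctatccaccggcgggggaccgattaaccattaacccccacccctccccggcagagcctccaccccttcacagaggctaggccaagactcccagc
GSPT2, chrX:51743192-51743441: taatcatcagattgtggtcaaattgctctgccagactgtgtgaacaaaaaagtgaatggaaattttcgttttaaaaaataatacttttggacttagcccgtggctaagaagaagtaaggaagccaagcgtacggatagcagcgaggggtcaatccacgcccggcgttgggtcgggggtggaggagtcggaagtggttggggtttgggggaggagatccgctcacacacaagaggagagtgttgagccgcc
Neither stretch held these letters, so neither has capitals. Over all 35116 RefSeq promoter windows of 300 bases, 0.3844% held CAAAGTCCA on either strand. Among the 16288 windows of tested genes the share was 0.3561% (58 windows). The share was 0.4785% among windows of genes higher with sgP1E and 0.5319% among windows of genes lower with sgP1E, with 8 and 6 windows holding it. The presence or absence of a match describes the sequence and says nothing of binding.

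The level of the targeted gene lay below the control with both guides, and whether this passed the test depended on which libraries and genes were fitted. HNF4A stood at 144.21 and 145.52 CPM (counts scaled to the size of the library) with sgP1E, at 118.40 and 108.94 CPM with sgP1J and at 205.74 and 219.81 CPM with sgNC. Both sgP1J libraries lay below both sgP1E libraries, and all 4 lay below the control. The guides did not overlap, in either direction, in 50.8% of all genes tested. The means were 68.1% and 53.4% of the sgNC mean. Between the guides the log2 fold change (sgP1E minus sgP1J, as in all such values below unless another pair is named) was 0.35 with a standard error (SE) of 0.41, and edgeR's quasi-likelihood test with Benjamini-Hochberg adjustment gave an adjusted p of 0.627. Against sgNC the values were -0.55 for sgP1E and -0.90 for sgP1J, and neither passed in the fit of 14 libraries (adjusted p = 0.476 and 0.379). That fit shares its estimate of spread with the 4 sgDual libraries, whose replicates stood at 3.19 and 10.31 CPM for sgDual2 and 4.83 and 13.64 for sgDual3. With the 6 sgP1 and sgNC libraries alone both guides were lower than sgNC (adjusted p = 0.0137 and 0.0029) and the adjusted p between the guides was 0.0576, and with the 4 sgP1 libraries alone it was 0.107. With no filter on low counts all 3 comparisons passed (adjusted p = 4.57e-07 and 1.64e-18 against sgNC, and 0.00407 between the guides). The log2 fold changes there were again -0.55, -0.90 and 0.35, so the estimate of spread changed and the difference did not. By the same quasi-likelihood test GSPT2 went from an adjusted p of 1.43e-08 to 4.71e-163 with no filter. With 2 libraries a guide, p-values of that fit are no firm measure of the spread between libraries. Counts were per gene, so transcripts from P1 and P2 cannot be told apart, and the level of the P1 transcripts was not measured. HNF4G, a paralog, did not pass the test between the guides either, with a difference of 0.09 on the log2 scale (SE 0.26, adjusted p = 0.865).

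Around the target, 13 other genes that start within 500 kb of HNF4A were tested, and 3 of them passed the threshold (adjusted p under 0.05), all higher with sgP1E, where 7.82% of all genes tested were higher. FITM2, a lipid droplet protein gene, had 19.54 and 18.81 CPM with sgP1E against 16.40 and 13.69 with sgP1J (log2 fold change 0.35, SE 0.10, adjusted p = 0.0392). SERINC3, a membrane protein gene, had 239.22 and 239.02 against 198.90 and 202.94 CPM (0.25, SE 0.07, adjusted p = 0.0279). CCN5, a secreted matricellular protein gene, stood at 0.39 and 0.39 against 0.15 and 0.06 CPM, with 5 and 2 counts in the sgP1J libraries. None of the 13 passed the threshold for either guide against sgNC with edgeR's quasi-likelihood test, and 3 had an unadjusted p under 0.05 with sgP1E and 0 with sgP1J. Without 1 library, FITM2 kept its call in 1 of 4 cases and lost it without sgP1E replicate 1 (adjusted p = 0.137), sgP1E replicate 2 (0.106) or sgP1J replicate 2 (0.219). SERINC3 and CCN5 lost theirs whichever of the 4 was left out, with adjusted p of 0.0561 to 0.125 and 0.0673 to 0.21.

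Many other genes differed between the guides. Of 16992 genes tested, 2467 (14.5%) passed the threshold between sgP1E and sgP1J, 1328 (7.82%) higher and 1139 (6.7%) lower with sgP1E. The median absolute log2 fold change of the genes called was 0.52, and 619 (3.64%) also reached an absolute log2 fold change of 1, 302 higher and 317 lower. The median over all genes was 0.00. Without 1 library the count of genes called was 1547 (sgP1E replicate 1 left out), 1484 (sgP1E replicate 2), 2224 (sgP1J replicate 1) and 1555 (sgP1J replicate 2). In a fit of the 4 sgP1 libraries alone it was 871, of which 866 were among the 2467.

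In the same fit, each guide was compared with sgNC, and these 2 comparisons share the sgNC libraries. With sgP1E 1464 genes (8.62%) passed the threshold against sgNC, and with sgP1J 517 (3.04%). The pair of guides to promoter P2, sgP2D against sgP2G, differed in 288 genes (1.69%) and the pair to both isoforms, sgDual2 against sgDual3, in 150 (0.883%). The difference between these counts was not tested. Leaving out 1 library gave 618 to 916 genes for sgP1E against sgNC, 222 to 699 for sgP1J against sgNC, 135 to 169 for the P2 pair and 53 to 71 for the pair to both isoforms.

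**Figure D1:**
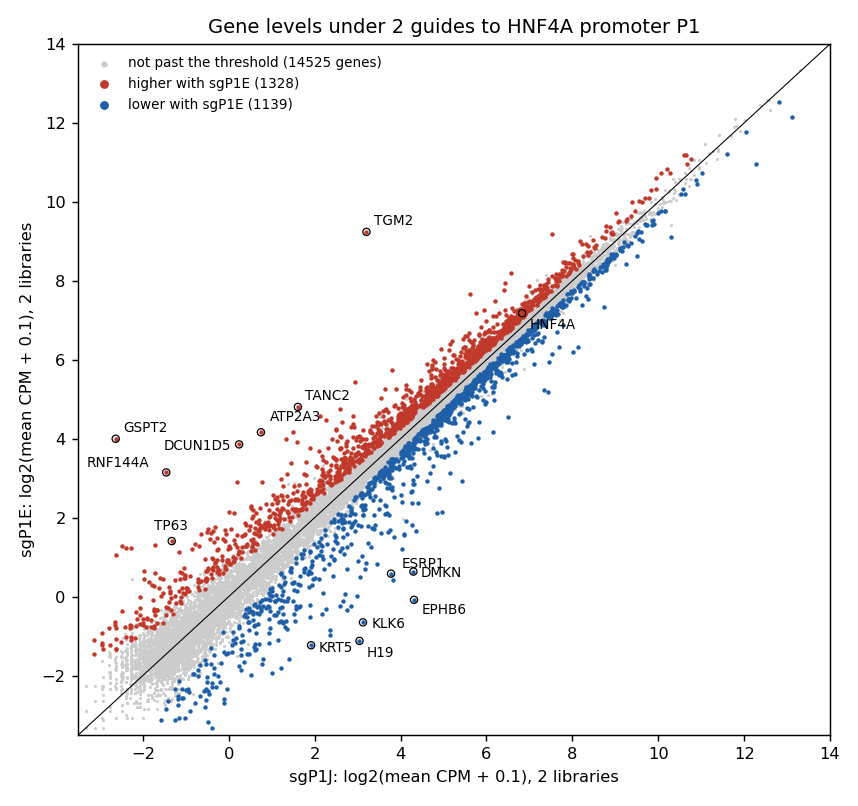
Mean level of each of the 16992 tested genes with sgP1E (vertical axis) and sgP1J (horizontal axis), as log2 of the mean CPM of 2 libraries plus 0.1. Red points are the 1328 genes higher and blue points the 1139 genes lower with sgP1E by edgeR's quasi-likelihood test, grey points are the rest, and circles with names mark single genes: GSPT2 and TGM2 lie far above the diagonal line of equal levels, EPHB6 and H19 far below it, and HNF4A close to it.

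The largest difference in the direction of sgP1E was in a gene almost silent with sgP1J. GSPT2, which encodes a translation termination factor and lies at chrX:51743431-51746232, had 17.41 and 14.36 CPM with sgP1E, 0.06 and 0.06 with sgP1J and 13.62 and 12.04 with sgNC. Each sgP1J library held 2 GSPT2 counts, against 893 and 477 in the sgP1E libraries. The ratio of sgP1E to sgP1J was 264-fold, with a 95% counting interval of 103 to 972 (exact binomial, counting error only). sgP1J was at 0.479% of the sgNC mean and sgP1E at 124%. In the other 10 AsPC-1 libraries the gene stood between 12.04 and 21.46 CPM, so both sgP1J libraries lay alone at the bottom (log2 fold change between the guides 7.94, SE 0.33, adjusted p = 1.43e-08, a fitted value that depends on the prior count at so few counts).

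TGM2 encodes transglutaminase 2, an enzyme that cross-links proteins, and lies at chr20:38127387-38166578 on the minus strand, on the chromosome of HNF4A and outside the 500 kb window. It had 584.64 and 624.34 CPM with sgP1E, 7.59 and 10.68 with sgP1J and 559.89 and 572.99 with sgNC. The sgP1J level was 1.61% of the control and the sgP1E level 107% of it. The other 10 libraries ran from 559.89 to 947.28 CPM. Between the guides TGM2 differed by 6.05 on the log2 scale (SE 0.13, adjusted p = 1.28e-11), and TGM2 overlaps RPRD1B on the opposite strand.

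Among the other genes of the 12 largest rises, defined among genes called with a mean of at least 1 CPM and no overlap between the guides, the same shape recurred. RNF144A, an E3 ubiquitin ligase gene, had 8.70 and 8.82 CPM with sgP1E, 0.18 and 0.36 with sgP1J and 5.77 and 7.58 with sgNC. DCUN1D5, whose product assists the attachment of NEDD8 to cullins, had 15.89 and 12.88, 0.88 and 1.29, and 14.98 and 13.93 CPM in the same order. ATP2A3, a calcium pump gene of the endoplasmic reticulum, had 16.19 and 19.45, 1.20 and 1.97, and 19.64 and 21.54 CPM. In these 3 genes the control lay nearer sgP1E and the sgP1J libraries lay far below both, with log2 fold changes of 5.05 (SE 0.23), 3.74 (SE 0.16) and 3.50 (SE 0.18) between the guides. TANC2, a scaffold protein gene, had 27.63 and 28.09 CPM with sgP1E, 3.33 and 2.58 with sgP1J and 11.75 and 14.19 with sgNC, so that sgP1E lay above the control and sgP1J below it (log2 fold change 3.23, SE 0.14).

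Lower-expressed genes of the same set rested on few sgP1J counts. C4orf19 (1.99 and 2.71 CPM with sgP1E, 0.06 and 0.10 with sgP1J, 1.27 and 1.57 with sgNC) and RBM24, an RNA-binding protein gene (2.63 and 1.87, 0.12 and 0.06, 1.90 and 1.28), again had the control near sgP1E. Their ratios were 29.6-fold (counting interval 12.5 to 92.3) and 25.3-fold (11.4 to 69.9). SUSD2, a membrane protein gene, had 2.46 and 1.51 CPM with sgP1E, 0.03 and 0.10 with sgP1J and 0.41 and 0.51 with sgNC, a ratio of 34.0-fold (13.04 to 126). It was also low with sgP2D (0.12 and 0.06 CPM) and sgDual2 (0.03 and 0.06), and stood at 1.83 and 1.15 with sgP2G. A low SUSD2 level was therefore not particular to sgP1J. Without sgP1J replicate 1 the SUSD2 log2 fold change went from 4.96 to 4.33 and without sgP1J replicate 2 to 5.95.

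CALCRL, SPP1 and TP63 differed in another way, since both sgP1E libraries lay above all 12 other AsPC-1 libraries. CALCRL, a receptor gene for peptides of the calcitonin family, had 2.22 and 2.29 CPM with sgP1E, 0.09 and 0.13 with sgP1J and 0.35 and 0.67 with sgNC. It differed from sgNC in both directions, by 2.13 with sgP1E (adjusted p = 0.000252) and by -2.21 with sgP1J (adjusted p = 0.0203). SPP1, which encodes the secreted protein osteopontin, had 2.46 and 2.26, 0.15 and 0.26, and 0.06 and 0.10 CPM, and it differed between the guides by 3.54 on the log2 scale (SE 0.46, adjusted p = 0.000243). TP63, the gene of the basal epithelial transcription factor p63 at chr3:189631416-189897279, had 2.18 and 2.92, 0.15 and 0.45, and 0.22 and 0.22 CPM. For SPP1 and TP63 sgP1J did not pass the threshold against sgNC (adjusted p = 0.608 and 0.839) and sgP1E did (0.000134 and 7.94e-05). The TP63 log2 fold change of 3.09 went to 2.47 without sgP1J replicate 1 and to 4.08 without sgP1J replicate 2.

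Over the 12 rises, both sgP1J libraries lay below all 12 other AsPC-1 libraries for 9 genes, the sgNC mean lay nearer sgP1E for 10, and the adjusted p between the guides ran from 1.28e-11 to 0.000243. Over all genes tested, sgP1J lay below every other library in 586 genes and above it in 615, and sgP1E below in 319 and above in 306. The 12 genes were chosen by the size of the difference between the guides, so these counts describe them and are not a test.

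**Figure D2:**
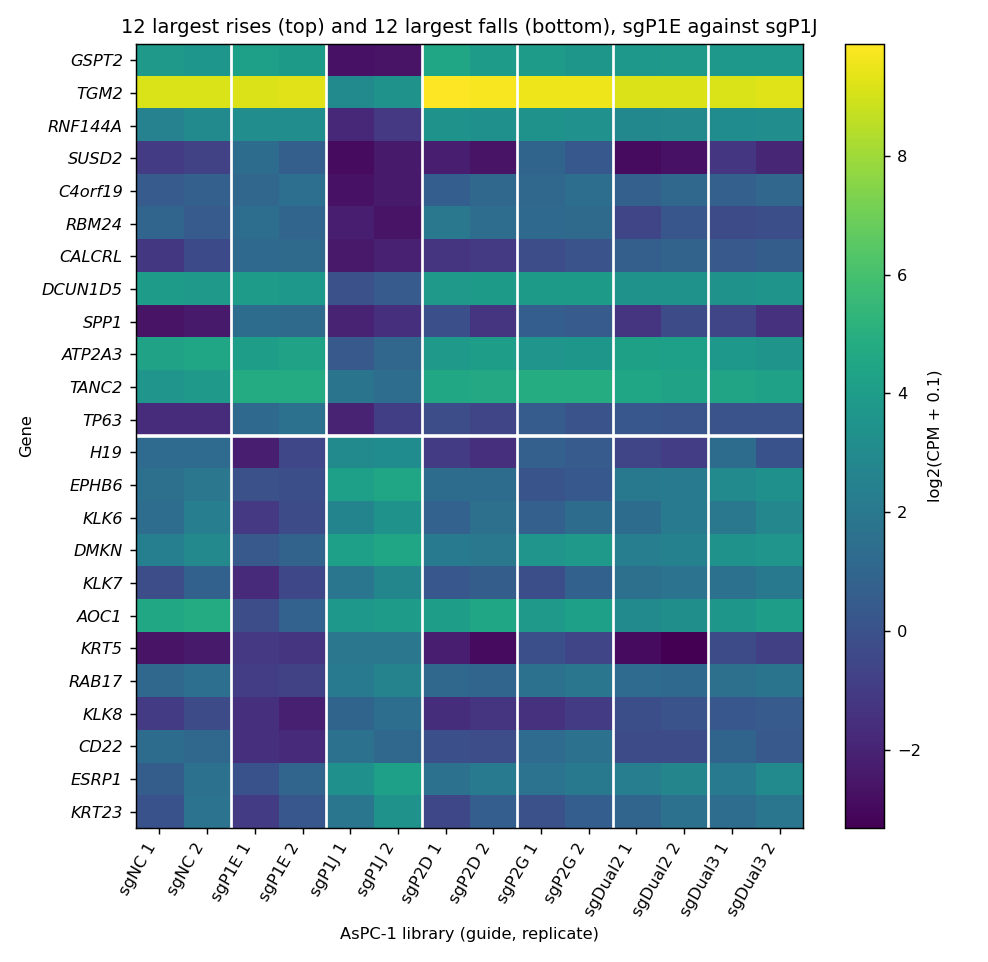
Level of the 12 largest rises (upper rows) and 12 largest falls (lower rows) of sgP1E against sgP1J in each of the 14 AsPC-1 libraries (columns, guide and replicate number), coloured by log2 of CPM plus 0.1. For GSPT2 the 2 sgP1J columns are the only dark ones in the row (0.06 CPM in each), and for EPHB6 they are the brightest (17.75 and 21.85 CPM).

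The 12 largest falls held 3 kallikreins, 2 keratins and the imprinted RNA H19. EPHB6, a member of the ephrin receptor family without kinase activity, had 0.88 and 0.81 CPM with sgP1E, 17.75 and 21.85 with sgP1J and 2.82 and 3.72 with sgNC. Both guides differed from sgNC and in opposite directions, by -1.94 with sgP1E (adjusted p = 9.22e-05) and by 2.60 with sgP1J (1.48e-06), and sgP1E against sgP1J it differed by -4.54 (SE 0.19, adjusted p = 1.43e-08). DMKN, the gene of the secreted skin protein dermokine, had 1.19 and 1.72, 17.19 and 22.01, and 5.07 and 7.29 CPM and likewise differed from sgNC in both directions (-2.12 and 1.66, adjusted p = 6.98e-05 and 0.000174). For both genes the control lay between the guides without touching either.

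H19, a long noncoding RNA expressed from 1 parental copy that also holds the microRNA gene MIR675, had 0.12 and 0.60 CPM with sgP1E, 7.91 and 8.39 with sgP1J and 2.34 and 2.38 with sgNC. The difference of -4.67 on the log2 scale (SE 0.49, adjusted p = 8.01e-05) went to -3.74 without sgP1E replicate 1 and to -6.09 without sgP1E replicate 2. RAB17, an epithelial trafficking GTPase gene, had 0.43 and 0.48, 4.03 and 5.97, and 2.09 and 2.70 CPM, again with the control between the guides (log2 fold change -3.46, SE 0.25).

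Kallikrein genes encode secreted serine proteases and stand side by side on chromosome 19, and 3 of them are among the 12 largest falls. KLK6 had 0.35 and 0.72 CPM with sgP1E, 6.16 and 11.10 with sgP1J and 2.57 and 4.88 with sgNC (log2 fold change -4.08, SE 0.56, adjusted p = 0.00098). KLK7 had 0.20 and 0.63, 3.50 and 6.49, and 0.76 and 1.61 CPM (-3.71, SE 0.51, adjusted p = 0.000563), and KLK8 0.25 and 0.12, 1.78 and 2.65, and 0.41 and 0.71 (-3.44, SE 0.36, adjusted p = 3.43e-05). In all 3 the sgP1J libraries were the highest of the 6. Without sgP1E replicate 1 the value of KLK7 was -2.96 and of KLK8 -4.14, and without sgP1E replicate 2 that of KLK7 was -4.66. KLK10 (means of 196 CPM with sgP1E, 320 with sgP1J and 199 with sgNC) and KLK11 (76.0, 123 and 85.0 CPM) beside them were lower as well, by -0.71 and -0.70 (adjusted p = 0.00346 and 0.000261). The other kallikrein genes tested, KLK1 and KLK14, did not pass (0.26 and 0.10, adjusted p = 0.52 and 0.934).

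Keratins KRT5 and KRT23 and the splicing regulator ESRP1 were further genes of this set. KRT5, a keratin of basal epithelial cells, had 0.35 and 0.30 CPM with sgP1E, 3.68 and 3.68 with sgP1J and 0.06 and 0.10 with sgNC, so it was above the control with both guides (adjusted p = 0.0493 with sgP1E and 4.22e-06 with sgP1J) and highest with sgP1J. ESRP1, an epithelial splicing regulator gene on chromosome 8, had 0.90 and 1.90, 9.90 and 17.37, and 1.36 and 2.95 CPM (log2 fold change between the guides -3.35, SE 0.47, adjusted p = 0.00106). KRT23, another keratin, had 0.41 and 1.08, 3.56 and 10.65, and 0.89 and 3.11 CPM (-3.33, SE 0.73, adjusted p = 0.0155). KRT23 was the only gene of the 24 whose call was lost in any alternative run, namely without sgP1E replicate 1 (-2.69, adjusted p = 0.122), without sgP1J replicate 2 (-2.34, adjusted p = 0.0821) and with the 6 sgP1 and sgNC libraries alone (adjusted p = 0.0508). Its value also moved to -4.11 without sgP1E replicate 2 and to -3.94 without sgP1J replicate 1. The intestinal keratin KRT20 went the other way, with 0.76 and 0.87 CPM with sgP1E against 0.15 and 0.42 with sgP1J (1.53, adjusted p = 0.0325), a call lost without sgP1E replicate 1 (0.0758), sgP1E replicate 2 (0.109) or sgP1J replicate 1 (0.94 on the log2 scale, 0.219), while without sgP1J replicate 2 the value was 2.45.

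AOC1 and CD22 were far below the control with sgP1E, while sgP1J overlapped the control for CD22 and stood at 54.7% of it for AOC1. AOC1, the gene of the histamine-degrading diamine oxidase, had 0.78 and 1.69 CPM with sgP1E, 13.19 and 14.91 with sgP1J and 23.76 and 27.58 with sgNC. CD22, a sialic acid-binding receptor gene best known from B cells, had 0.25 and 0.21, 2.98 and 2.10, and 2.41 and 2.05 CPM. Against sgNC the sgP1E values of these genes were -4.46 and -3.22 (adjusted p = 6.17e-06 and 3.99e-05) and the sgP1J values -0.87 and 0.19 (0.0692 and 0.808). Over the 12 falls, sgP1J lay above all 12 other libraries for 8 genes and sgP1E below all for 7, and the sgNC mean lay nearer each guide for 6.

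**Figure D3:**
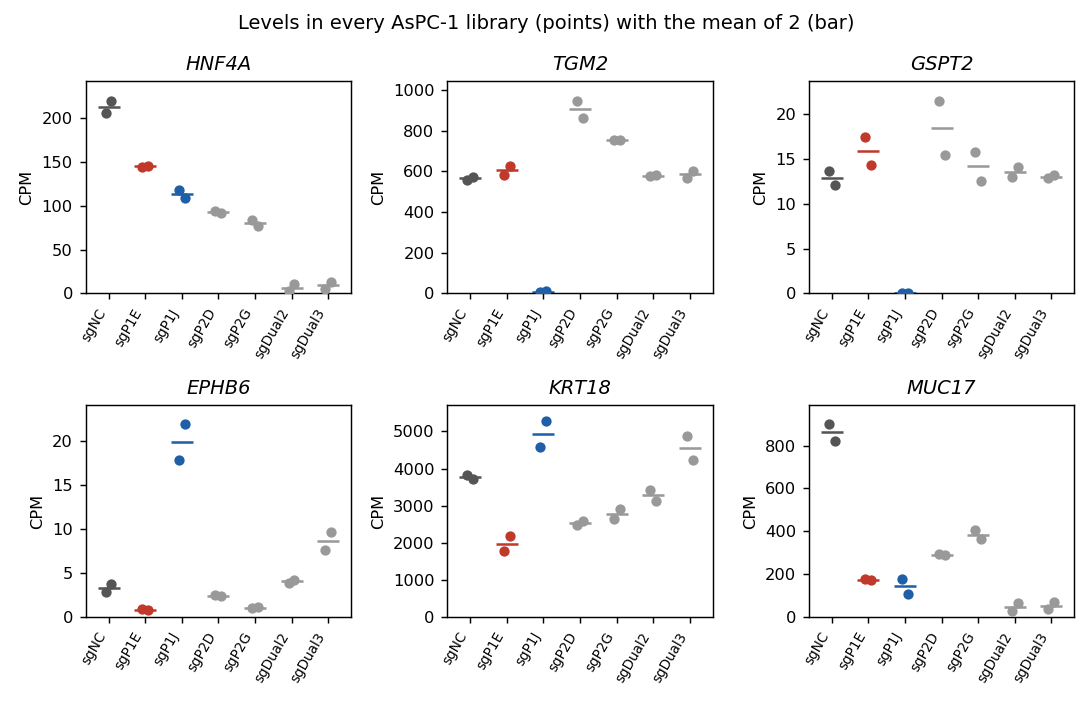
Levels in CPM (vertical axes, starting at 0) of 6 genes in every AsPC-1 library by guide, with points for libraries and bars for the mean of 2. HNF4A is below sgNC with both sgP1 guides, TGM2 and GSPT2 are near 0 with sgP1J alone, EPHB6 is highest with sgP1J, KRT18 is lowest with sgP1E, and MUC17 is low with both.

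Tested genes that start within 50 kb of these 24 genes were also read, in a window added after the values were seen. Beside the 12 rises there were 2 tested neighbours, and both were higher with sgP1E: DYNC2H1, a ciliary motor gene next to DCUN1D5 (log2 fold change 1.47, adjusted p = 0.00167), and PKD2, a cation channel gene next to SPP1 (0.38, adjusted p = 0.0132). Beside the 12 falls, 8 tested neighbours were not themselves among the 24, and 6 of them were lower with sgP1E, against 6.7% of all genes tested. KLK10 and KLK11 are among the 6. TMEM176A and TMEM176B, overlapping membrane protein genes next to AOC1, had 2.96 and 5.57 CPM and 3.10 and 5.54 CPM with sgP1E against 22.36 and 34.89 and 24.67 and 38.02 with sgP1J. Their sgNC levels were 25.72 and 34.90 and 31.11 and 36.70 CPM, overlapping those of sgP1J, whereas for AOC1 the control lay above sgP1J. Whether reads of these overlapping genes were told apart by strand is not given in the sources used here. The exceptions were TMEM147-AS1 beside DMKN (-0.29, adjusted p = 0.149) and LRRFIP1 beside RAB17 (0.00, adjusted p = 0.999).

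Further genes singled out after their values were seen shared these shapes. ARHGEF5, a guanine nucleotide exchange factor gene, had 2.20 and 3.55 CPM with sgP1E, 16.55 and 16.98 with sgP1J and 16.16 and 18.11 with sgNC (log2 fold change -2.58, SE 0.16). Its near-identical copies ARHGEF35 and ARHGEF34P moved by -3.17 and -2.80, and reads could have been split among the 3, so the size is uncertain for each. DUOX2, which encodes an epithelial enzyme that makes hydrogen peroxide, had 13.83 and 22.16 CPM with sgP1E, 2.60 and 2.84 with sgP1J and 3.20 and 4.40 with sgNC (2.72, SE 0.31, adjusted p = 0.000258). Its maturation factor gene DUOXA2, which overlaps it, had 1.87 and 4.18, 0.44 and 0.77, and 0.48 and 0.51 CPM (2.29, SE 0.50, adjusted p = 0.0103), a call lost without sgP1J replicate 1 (1.91, adjusted p = 0.0812) and a value of 1.63 without sgP1E replicate 2.

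The genes described for both sgP1 guides together against sgNC were taken guide by guide. They were named from the same sgP1 and sgNC libraries, so lying on 1 side of the control with both guides describes them and is not a test. MUC17, a membrane mucin of the intestinal surface, had 175.73 and 171.68 CPM with sgP1E, 179.72 and 108.36 with sgP1J and 899.64 and 823.14 with sgNC. Both guides stood far below the control (20.2% and 16.7% of it) and overlapped each other, and the difference between them was 0.27 with an SE of 0.38 (adjusted p = 0.701). Its sign turned without sgP1J replicate 2 (-0.04, adjusted p = 0.971). REG4, a secreted lectin gene, had 30.66 and 35.43, 24.52 and 24.43, and 7.79 and 6.94 CPM, above the control with both guides and higher with sgP1E (0.43, SE 0.13, adjusted p = 0.036). DENND2B, a gene for a regulator of Rab GTPases, had 12.13 and 13.09, 9.92 and 9.65, and 4.40 and 4.69 CPM (0.36, SE 0.10, adjusted p = 0.0265). GOLGA7B, a gene of protein palmitoylation, had 4.74 and 3.49, 6.10 and 5.94, and 14.57 and 14.51 CPM (-0.53, SE 0.18, adjusted p = 0.0648), and passed the threshold without sgP1E replicate 1 (-0.78, adjusted p = 0.0395) and with no filter on low counts (adjusted p = 0.0188). The REG4 call was lost without sgP1E replicate 2 (adjusted p = 0.229), sgP1J replicate 1 (0.11) or sgP1J replicate 2 (0.121), and that of DENND2B whichever of the 4 was left out (0.051 to 0.168).

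Gene lists were described by how many tested members passed the threshold, beside 7.82% higher and 6.7% lower over all genes. Keratin and adhesion genes that mark epithelial cells were lower with sgP1E in 4 of 6 cases, with a median log2 fold change of -0.89. KRT18, a simple-epithelial keratin, had 1779.10 and 2182.98 CPM with sgP1E, 4588.79 and 5270.75 with sgP1J and 3814.67 and 3727.93 with sgNC (-1.32, SE 0.11, adjusted p = 5.63e-06). Its partner KRT8 had 4205.46 and 4959.35, 8667.65 and 9181.67, and 7766.05 and 7387.67 CPM (-0.96, SE 0.10, adjusted p = 2.53e-05), and the 2 genes overlap on opposite strands. MUC1, a membrane mucin, had 4.58 and 7.83, 17.46 and 20.40, and 3.80 and 6.39 CPM (-1.63, SE 0.30, adjusted p = 0.0047). For the keratins the control lay between the guides, with sgP1E below it and both sgP1J libraries above it but nearer to it. For MUC1 sgP1J was above the control and sgP1E near it.

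EPCAM, an epithelial adhesion molecule gene, had 305.43 and 377.70, 516.23 and 694.35, and 499.42 and 627.70 CPM (-0.83, SE 0.17, adjusted p = 0.00756), a call lost without sgP1E replicate 1 (adjusted p = 0.0722) or sgP1J replicate 2 (0.076). CDH1, the E-cadherin gene, pointed the other way, with means of 34.5 CPM with sgP1E, 16.7 with sgP1J and 49.8 with sgNC, without passing the threshold (1.04, adjusted p = 0.0599). None of the 6 markers was called higher by edgeR (1 at an unadjusted p under 0.05), while 1 was with no filter on low counts and 1 with DESeq2. The summed level of the 6 markers was 8403 to 10106 CPM with sgP1E, 16139 to 18167 with sgP1J and 14192 to 14347 with sgNC. In bulk RNA, fewer cells of a kind and less RNA per cell cannot be told apart. All 6 acinar markers were under 0.1 CPM in the 4 libraries, as were the blood markers PTPRC, CD3E and HBB, the endothelial markers CDH5, KDR and CLDN5, and 5 of 6 neuroendocrine markers. Fibroblast markers summed to 196 to 202 CPM with sgP1E and 180 to 180.4 with sgP1J. None of the 6 passed edgeR's or DESeq2's test (2 had an unadjusted p under 0.05), but with no filter on low counts edgeR called 1 higher and 1 lower. Blood markers, chiefly LYZ, summed to 15.6 to 18.1 CPM with sgP1E and 32.6 to 38.7 with sgP1J (39.0 to 47.4 with sgNC), with LYZ lower (-1.50) and the macrophage gene CD68 higher (0.59) with sgP1E. The CD68 call was lost whichever of the 4 libraries was left out (adjusted p from 0.0824 to 0.133). The part of these markers in the other results was not tested.

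Of 16 tested genes that mark basal-like pancreatic tumours, 4 were lower with sgP1E and none higher by edgeR (0 at an unadjusted p under 0.05 and 0 with DESeq2, but 1 with no filter on low counts), with a median of -0.16. Besides KRT5 these were KRT6A, a keratin of stratified epithelia (1 and 0 counts with sgP1E against 26 and 15 with sgP1J, a ratio of 53.1-fold with a counting interval of 9.01 to 2148), TNS4 and FAM83A. TNS4, a focal adhesion protein gene, had 43.39 and 29.38 CPM with sgP1E, 223.16 and 123.89 with sgP1J and 107.24 and 81.17 with sgNC (-2.25, SE 0.32, adjusted p = 0.00161). FAM83A, a signalling scaffold gene, lost its call without sgP1E replicate 1 (adjusted p = 0.0559), sgP1E replicate 2 (0.221) or sgP1J replicate 1 (0.203). The fitted KRT6A value of -5.35 went to -7.35 without sgP1E replicate 1.

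Of 22 tested genes that mark classical tumours, 5 were higher and 6 lower, with a median of -0.13. Among those lower, LYZ, the lysozyme gene, had 10.41 and 12.58 CPM with sgP1E, 29.66 and 34.93 with sgP1J and 36.24 and 44.18 with sgNC (-1.50, SE 0.18, adjusted p = 0.000199). ANXA10, a gastric annexin gene, had 0.86 and 0.99, 2.10 and 2.42, and 0.48 and 0.42 CPM (-1.30, SE 0.26, adjusted p = 0.00425), and CEACAM6, a cell surface adhesion molecule gene, had means of 548, 1265 and 1034 CPM (-1.21, adjusted p = 4.82e-05). The 5 higher calls were 0 without sgP1E replicate 2 or without sgP1J replicate 1, and 1 in the fits of 4 or 6 libraries. The lower calls were 4 without sgP1E replicate 1.

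Brush border and intestinal surface genes, the apical proteins of absorptive cells and a group that includes known HNF4A targets, were higher with sgP1E in 8 of 26 tested members and lower in 0 by edgeR (1 lower at an unadjusted p under 0.05, and 1 with DESeq2), with a median of 0.32. CDHR5, a microvillus protocadherin gene, had 66.21 and 64.75 CPM with sgP1E, 35.23 and 29.47 with sgP1J and 60.26 and 51.82 with sgNC (1.02, SE 0.10, adjusted p = 2.53e-05). TM4SF20, a membrane protein gene, had 15.15 and 17.76, 7.06 and 8.52, and 13.40 and 17.31 CPM (1.08, SE 0.21, adjusted p = 0.00422). DPP4, a surface peptidase gene, had 358.13 and 356.93, 234.81 and 223.43, and 286.01 and 314.46 CPM (0.64, SE 0.07, adjusted p = 6.35e-05). In CDHR5 and TM4SF20 sgP1E lay by the control and sgP1J below it, while in DPP4 the control lay between the guides.

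Against sgNC the median of that list was -0.18 with sgP1E and -0.55 with sgP1J. The count of 8 was 5 without sgP1E replicate 1, 4 without sgP1E replicate 2, 4 in the fit of the 4 sgP1 libraries and 14 with no filter on low counts. With DESeq2's Wald test and with no filter, 1 member was also lower. Of the 26 members, 21 had a positive and 5 a negative log2 fold change. VIL1, the gene of the actin-bundling protein villin, was 1 of the 5. Its means were 53.9 CPM with sgP1E, 117 with sgP1J and 88.5 with sgNC, without passing the threshold (-1.12, adjusted p = 0.074).

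Genes of lipid handling, another group with known HNF4A targets, were higher in 2 and lower in 1 of 12 (1 higher without sgP1E replicate 2, and 0 lower without sgP1E replicate 1 or sgP1J replicate 2). MOGAT3, an enzyme gene of triglyceride synthesis, had 19.89 and 17.40 CPM with sgP1E, 10.13 and 9.30 with sgP1J and 30.92 and 27.29 with sgNC (0.94, SE 0.16, adjusted p = 0.00173), below the control with both guides and more so with sgP1J. Of 19 tested endoderm transcription factors, 3 were higher and 2 lower (1 lower without sgP1E replicate 1 or sgP1J replicate 2). ONECUT2 had 41.25 and 47.71 CPM with sgP1E against 32.20 and 24.89 with sgP1J, and 31.87 and 35.03 with sgNC (0.64, SE 0.12). ONECUT3 had 42.59 and 38.95 against 28.31 and 24.85 CPM, and 31.17 and 31.91 with sgNC (0.62, SE 0.09). SOX9, a ductal cell factor, had 32.57 and 42.08, 56.92 and 56.49, and 52.75 and 55.55 CPM, low with sgP1E alone among the 6 libraries (-0.61, SE 0.10, adjusted p = 0.00152).

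Genes of major histocompatibility complex class I presentation, which show peptides to T cells, were higher with sgP1E in 6 of 13 and lower in 0 by edgeR (also 0 at an unadjusted p under 0.05, and 0 with DESeq2, but 1 without sgP1J replicate 1), with a median of 0.24. B2M, the shared light chain, had 600.37 and 635.29 CPM with sgP1E, 390.42 and 490.80 with sgP1J and 361.06 and 409.72 with sgNC (0.49, SE 0.10, adjusted p = 0.00589). HLA-E, a nonclassical heavy chain gene, had 166.17 and 167.49, 110.54 and 129.79, and 100.97 and 113.02 CPM (0.47, SE 0.09, adjusted p = 0.00266). Of sgP1E, sgP1J and sgNC, both genes were highest with sgP1E, with sgP1J nearer the control. The heavy chain genes HLA-B and HLA-C differed by 0.35 and 0.37 and share long stretches of sequence, so reads could be split between them. The count of 6 was 2 without sgP1E replicate 2 or sgP1J replicate 1, 4 without sgP1J replicate 2, 1 with the 6 sgP1 and sgNC libraries alone and 0 with the 4 sgP1 libraries alone.

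Interferon-stimulated genes were higher in 4 and lower in 2 of 39. SAMD9L and SAMD9, neighbouring antiviral factor genes on chromosome 7, had 14.29 and 13.76 and 74.75 and 76.16 CPM with sgP1E against 6.39 and 6.58 and 48.86 and 47.71 with sgP1J (1.11 and 0.64, adjusted p = 0.000137 and 0.000834). With no filter on low counts 18 members were higher, and 0 were lower without sgP1E replicate 1 or sgP1J replicate 2 and 4 without sgP1J replicate 1. Of 20 chemokine and cytokine genes driven by NF-kB, 4 were higher and 1 lower. CXCL1, a neutrophil-attracting chemokine gene, had 4.64 and 4.30 CPM with sgP1E, 1.02 and 1.74 with sgP1J and 0.38 and 0.58 with sgNC (1.71, SE 0.30, adjusted p = 0.0018). BIRC3, a ubiquitin ligase gene that limits cell death, had 17.77 and 24.05, 42.35 and 53.00, and 19.01 and 27.16 CPM (-1.20, SE 0.21, adjusted p = 0.00336). The 4 higher calls were 1 without sgP1E replicate 1 or sgP1J replicate 1 and 2 without sgP1E replicate 2.

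Of 16 tested targets of the oxidative stress factor NRF2, 4 were higher and 2 lower, and all 4 higher ones were aldo-keto reductases, enzymes that reduce carbonyls and steroids. AKR1C2 had 229.03 and 173.94 CPM with sgP1E, 48.40 and 49.64 with sgP1J and 68.53 and 65.60 with sgNC (2.04, SE 0.36, adjusted p = 0.00517), and AKR1C3 had 495.10 and 475.03, 272.99 and 329.63, and 355.20 and 376.97 CPM (0.69, SE 0.13, adjusted p = 0.00355). AKR1C1 (1.64, adjusted p = 0.00887) and AKR1B10 (1.00, adjusted p = 0.0239) were the others. AKR1C genes are close copies of each other, so their separate sizes are uncertain. HMOX1 (-0.58, adjusted p = 0.0279), the gene of haem oxygenase 1, and ME1 (-0.65, adjusted p = 0.0333), the gene of malic enzyme, were lower. The higher calls were 2 without sgP1E replicate 1, sgP1J replicate 1 or sgP1J replicate 2. AKR1B10 lost its call without any of the 4 libraries (adjusted p from 0.0617 to 0.112) and AKR1C1 without sgP1E replicate 1 (0.0557), sgP1J replicate 1 (0.0524) or sgP1J replicate 2 (0.0506), and 0 genes were lower without sgP1E replicate 1, sgP1E replicate 2 or sgP1J replicate 1 and 1 without sgP1J replicate 2.

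Genes of the ATF4 amino acid response were lower in 4 of 19 and higher in 0 by edgeR, with a median of -0.12. Higher genes numbered 0 at an unadjusted p under 0.05 and 0 with DESeq2, but 1 with no filter on low counts. SHMT2, a mitochondrial enzyme gene of serine metabolism, had 98.64 and 102.80 CPM with sgP1E, 136.87 and 152.74 with sgP1J and 126.85 and 133.95 with sgNC (-0.52, SE 0.07, adjusted p = 0.000436). CEBPB, a transcription factor gene, had 49.94 and 49.79, 63.93 and 70.08, and 52.81 and 53.33 CPM (-0.43, SE 0.08, adjusted p = 0.00265). The count of 4 was 2 without either sgP1E library and 1 with the 4 sgP1 libraries alone. In the unfolded protein response list 3 of 16 were higher and 0 lower by edgeR (3 lower at an unadjusted p under 0.05, 0 with DESeq2), with a median of 0.00. EDEM1, a gene of endoplasmic reticulum degradation, had 70.21 and 73.36, 48.69 and 48.81, and 53.00 and 59.50 CPM (0.56, SE 0.08, adjusted p = 0.000637), and the count was 1 without sgP1E replicate 2 or sgP1J replicate 1 and 1 with 4 or 6 libraries fitted.

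Genes of the TGF-beta response split into 3 higher and 3 lower of 14, and YAP targets into 3 and 3 of 12. ITGA5, the fibronectin receptor gene, had 18.58 and 12.85 CPM with sgP1E, 5.43 and 5.04 with sgP1J and 4.09 and 5.20 with sgNC (1.59, SE 0.24, adjusted p = 0.0011), whereas ITGB6, an epithelial integrin gene, had 15.54 and 17.07, 25.83 and 31.02, and 18.50 and 25.65 CPM (-0.80, SE 0.13, adjusted p = 0.00145). CRIM1, a membrane-bound regulator of growth factors, was higher (0.50, SE 0.07, adjusted p = 0.00031) and ANKRD1, a muscle and stress protein gene of low level, lower (-2.13, SE 0.37, adjusted p = 0.00173). The higher YAP calls were 1 without sgP1E replicate 1 or sgP1J replicate 2.

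In other lists few members or none passed. Among 22 immediate early and ERK feedback genes 4 were higher and 1 lower, but only JUNB (0.40, adjusted p = 0.0034) of the 4 highest-ranked members kept its call when each library was left out. The lower calls were 0 without sgP1E replicate 1 and 2 without sgP1J replicate 1. The higher calls were 2 without sgP1E replicate 1, 1 without sgP1E replicate 2 or sgP1J replicate 1, and 0 with the 4 sgP1 libraries alone. Of 23 hypoxia and glycolysis genes, NDRG1 was higher (145.81 and 146.06 CPM with sgP1E against 78.73 and 79.05 with sgP1J, 0.89, SE 0.16) and SLC2A3, a glucose transporter gene, lower (-1.11, SE 0.20), with PFKFB3, an activator of glycolysis, also lower (-0.34, adjusted p = 0.0404, and 0.0849 to 0.255 without sgP1E replicate 1, sgP1E replicate 2 or sgP1J replicate 1). No member passed edgeR's test among 24 DNA replication genes, 30 genes of cholesterol and fatty acid synthesis and 11 heat shock genes, and DESeq2's Wald test also called none. At an unadjusted p under 0.05 there were 1, 5 and 2 such genes in the 3 lists. With no filter on low counts edgeR called 1 DNA replication gene higher and 1 lower, 3 cholesterol and fatty acid genes higher and 3 heat shock genes lower. All 11 heat shock genes had a value below 0, from -0.35 to -0.02. Among 21 mitosis genes 3 were lower (UBE2C, CDK1 and AURKB, each by 0.33 or less on the log2 scale), and 0 without sgP1E replicate 2 or sgP1J replicate 2. Of 13 mitochondrially encoded genes, MT-ND1 alone was called (-0.29, adjusted p = 0.0245), a call lost without sgP1E replicate 1 (0.196) or sgP1J replicate 1 (0.0502).

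**Figure D4:**
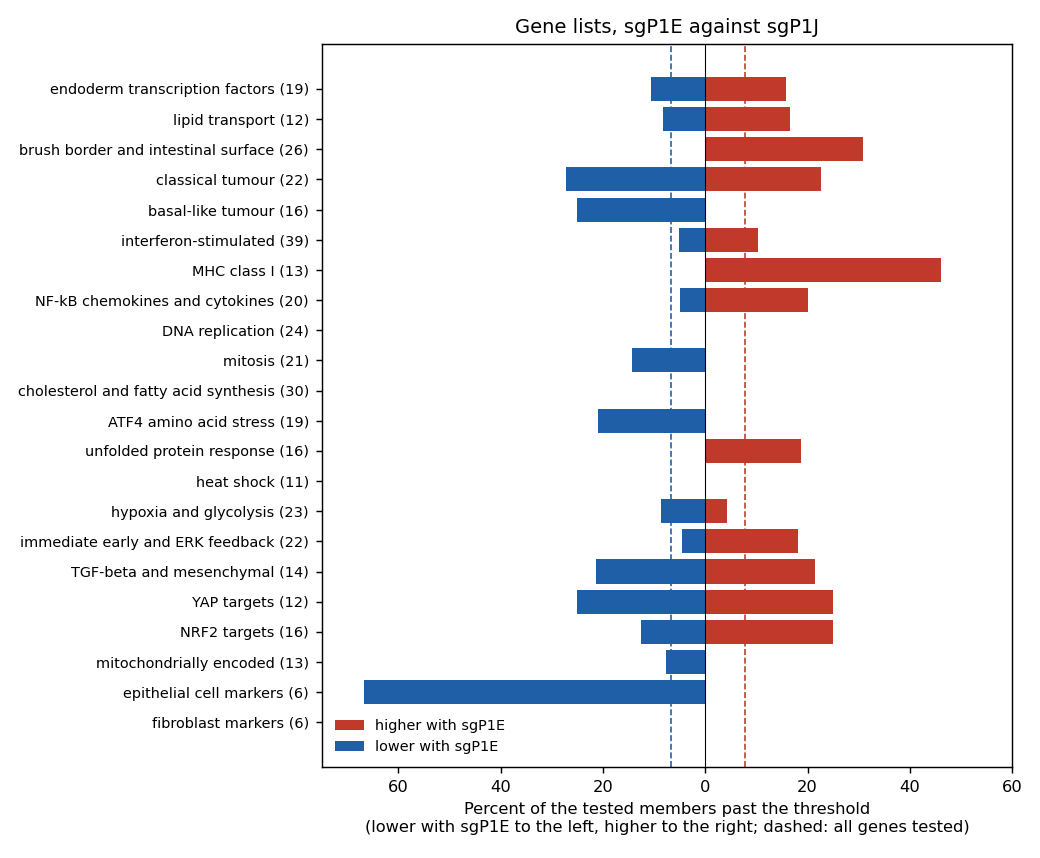
Share of the tested members of each gene list with at least 6 of them (number in brackets) that were higher (red, to the right) or lower (blue, to the left) with sgP1E than with sgP1J at an adjusted p under 0.05, with dashed lines at 7.82% and 6.7%, the shares over all 16992 genes. Class I genes (6 of 13 higher) and epithelial markers (4 of 6 lower) have the longest bars of the lists drawn, and the DNA replication, cholesterol and heat shock lists have none in the fit shown, though with no filter on low counts 2, 3 and 3 of their members passed.

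The difference between the guides was not spread evenly over the chromosomes. Among genes of at least 1 CPM, the 715 on chromosome 3 had a median log2 fold change of 0.13, with 132 higher (18.5%) and 28 lower. On the 22 other chromosomes counted the medians ran from -0.05 to 0.04 and the share higher from 5.25% to 11.9%. The share lower was highest on chromosome 12 (13.9%, 98 of 704 genes) and chromosome 1 (13.1%, 168 of 1286), against 8.04% over all. Chromosome 3 stood at 0.09 for sgP1E against sgNC and at -0.02 for sgP1J against sgNC, which share the sgNC libraries. Of 234 stretches of 10 Mb with at least 20 genes, those of chromosome 3 from 110 to 160 Mb and from 170 to 200 Mb took ranks 1 to 4 and 7 to 10. The highest, from 110 to 120 Mb, had a median of 0.36 over 32 genes with 11 higher and 1 lower, and that from 180 to 190 Mb, where TP63 lies, 0.25 over 49 genes with 18 higher and none lower. The lowest was chromosome 8 from 80 to 90 Mb, with a median of -0.30 over 23 genes, 11 lower and none higher. Chromosome 18 from 30 to 40 Mb followed (-0.26 over 29 genes, 12 lower and 1 higher). Next came chromosome 8 from 140 to 150 Mb (-0.23), chromosome 12 from 60 to 70 Mb (-0.22) and chromosome 1 from 150 to 170 Mb (-0.20 and -0.19).

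**Figure D5:**
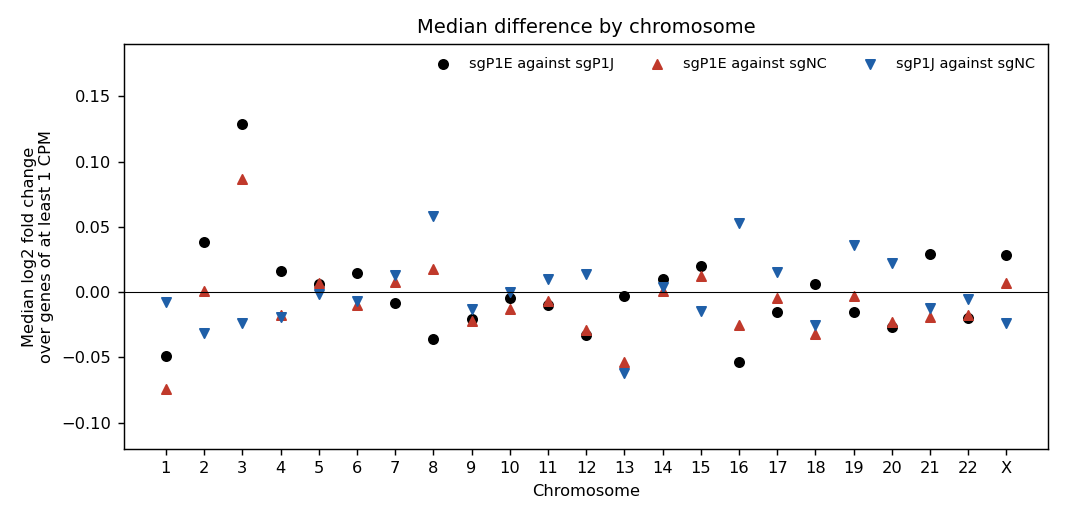
Median log2 fold change over genes of at least 1 CPM on each chromosome (horizontal axis) for sgP1E against sgP1J (black circles), sgP1E against sgNC (red triangles) and sgP1J against sgNC (blue inverted triangles), the last 2 sharing the sgNC libraries. Chromosome 3 stands highest at 0.13 between the guides, and the 22 others lie between -0.05 and 0.04.

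The 4 sgP1 libraries held 30778972 to 50662077 counts each, the deepest being sgP1E replicate 1, and the sgNC libraries 31394018 and 32112345. Per degree of freedom, chi-square between the counts of replicates was 18.2 between the sgP1E libraries, 24.1 between the sgP1J libraries and 11.8 between the sgNC libraries, so none was treated as a copy of another. Both libraries of 1 guide lay above both of the other in 8624 genes (50.8%), so lack of overlap alone does not set a gene apart here.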

How the data were processed

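Poly(A) RNA of AsPC-1 cells was sequenced in 14 libraries, and the values used are counts per gene, whole numbers without normalization as deposited by the authors. Per the submitters' processing notes, cutadapt 1.16, STAR 2.7.9a, featureCounts 1.6.3, DESeq2 1.36.0 and build GRCh38 were named, without role or order. The strand setting and the annotation are not given in the sources used here. A directional kit was used, per the labels' protocols. The table held 62754 identifiers, 99.9% of which matched a table of gene names.

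Genes were kept by edgeR's filterByExpr, scaled by TMM and tested with the quasi-likelihood test (glmQLFit, robust, then glmQLFTest) in 1 fit of 7 groups by guide over all 14 libraries, since 2 libraries a guide leave few degrees of freedom. Benjamini-Hochberg adjustment ran over 16992 genes, with a threshold of 0.05. The SE is the absolute log2 fold change divided by the square root of F, and CPM are edgeR's, with TMM. In simulated data for sgP1E against sgP1J over 16651 genes, only genes with a mean of at least 1 CPM were changed. Of 100 changed by a log2 fold change of 1, 90% were recovered, and of 100 changed by 2, 98%. False calls among the other genes numbered 10, and recovery of genes under 1 CPM was not simulated.

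Named genes are the 12 largest rises and 12 largest falls (called, mean of at least 1 CPM, guides not overlapping), up to 4 called members per list, HNF4A, HNF4G, genes within 500 kb of HNF4A, and 4 genes followed guide by guide. Neighbours within 50 kb of the 24, ARHGEF5, ARHGEF35, ARHGEF34P, DUOX2, DUOXA2, CEACAM6, CDH1, VIL1, KLK1, KLK14, HMOX1, ME1 and HLA-B were named after their values were seen. Some genes of this rule are not reported here. The members, the 20 gene lists and 6 marker lists were chosen with earlier results of these data known. Positions are those of GENCODE v29. Fits used edgeR 4.0.16 and, as an alternative, DESeq2 1.42.0, with limma 3.58.1 under R 4.3.3. Tables and plots were made with matplotlib 3.10.9, pandas 2.3.3 and numpy 2.4.6 in Python 3.11.15.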

Additional observations from a re-analysis of the deposited data

How the results depend on the processing

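Between sgP1E and sgP1J the count of genes called was 2477 with DESeq2's size factors, 2445 with total counts alone, 2429 with DESeq2's Wald test and 3009 with no filter on low counts. With total counts alone 59.0% of the calls were higher with sgP1E, against 53.8%. Asking also for a log2 fold change of at least 1 in size left 619 (302 higher, 317 lower), 424 for sgP1E against sgNC (239 and 185), 179 for sgP1J against sgNC (88 and 91), 124 for sgP2D against sgP2G (45 and 79) and 73 for sgDual2 against sgDual3 (37 and 36). With no filter, sgP1J against sgNC gave 1012 (468 higher, 544 lower), the P2 pair 649 (256 and 393) and the dual pair 417 (147 and 270), and HNF4A passed between the guides (0.35, adjusted p = 0.00407) and against sgNC (-0.55 for sgP1E and -0.90 for sgP1J, adjusted p = 4.57e-07 and 1.64e-18). Over all alternatives its adjusted p between the guides ran from 0.00407 to 0.779. The lowest came with no filter, where the log2 fold change was as in the main fit and the estimate of spread was not. Fitted alone, the 4 sgP1 libraries gave 871 (477 and 394). The 6 sgP1 and sgNC libraries gave 1145 (638 and 507), with 638 for sgP1E against sgNC (346 and 292) and 195 for sgP1J against sgNC (67 and 128), and HNF4A passed against sgNC (-0.56 for sgP1E and -0.91 for sgP1J, adjusted p = 0.0137 and 0.0029). Of 102 named genes called, 34 lost their call with the 4 libraries and 28 with the 6. The cause of these changes was not tested, beyond the different number of libraries and genes that enter.

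The titles give each guide replicate numbers 1 and 2 without saying what they share. The correlation of the replicate differences ran from 0.0772 to 0.339 over the 21 pairs of guides, all positive. It was highest, at 0.339, for sgP1E with sgP1J. With 2 numbers this does not show that they pair the libraries, and what they share was not tested. The main fit had no term for the replicate number, so a difference shared by the guides counts there as spread between libraries. A replicate block adds such a term. With the replicate block, 4616 genes were called between sgP1E and sgP1J (2331 higher, 2285 lower; all 2467 among them), 3277 for sgP1E against sgNC (1693 and 1584), 1356 for sgP1J against sgNC (578 and 778), 778 for the P2 pair (351 and 427) and 558 for the dual pair (241 and 317). GOLGA7B passed (-0.54, adjusted p = 0.00458), as did 5 heat shock genes (lower), 2 cholesterol and fatty acid genes higher and 3 lower, 1 DNA replication gene higher and 2 lower, and 1 basal-like gene higher.

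Leaving out 1 library leaves a guide with a lone library, which is assumed to vary like the other groups. The replicate numbers are then uneven between the guides, so a shift in a fold change can also hold a difference between replicate numbers. The counts then ran from 1484 to 2224 between sgP1E and sgP1J (761 to 1099 higher, 639 to 1125 lower), from 618 to 916 for sgP1E against sgNC (296 to 544 and 322 to 426), from 222 to 699 for sgP1J against sgNC (69 to 305 and 125 to 394), from 135 to 169 for the P2 pair (45 to 67 and 82 to 102) and from 53 to 71 for the dual pair (34 to 41 and 19 to 33). Of 102 named genes called, 64 kept their call in all 4 such fits and 38 lost it in at least 1, and of the 24 largest differences 23 kept it. Of the 2467 genes called between sgP1E and sgP1J, none changed sign under any of the 11 alternative fits. These fits gave a value for 2451 to 2467 of them. The 24 and the 2467 genes were chosen by their calls in these same libraries, so these counts describe them and are not a test. A gene with few counts in the lower guide has a fitted value that rests on those counts.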
